A study of Arabidopsis thaliana with 5 samples.

Results

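The transcriptome described here is that of roots of Col-0, the reference wild-type accession of Arabidopsis thaliana. The series holds 5 RNA-seq libraries labelled as root, and the 3 of genotype Col-0 were used; the other 2, of genotype GFP-GrxS5, were not analysed here. The study was made to find genes that GrxS5, a glutaredoxin, represses, with Col-0 as the reference genotype. The labels give no treatment, age or growth stage and do not say whether the 3 libraries came from separate plants, so the spread between them may be technical. With 1 group there is nothing to test between conditions, and every value below is a description given as the mean ± SD over the 3 libraries.

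Levels are in FPKM, fragments scaled to transcript length and to the size of the library, as deposited by the authors for 33557 genes and other annotated features. The members are the 33555 features whose value had the status OK in all 3 libraries. At the estimated depth of 4330000, 3720000 and 4090000 fragments in replicates 1, 2 and 3, a level of 1 FPKM on a transcript of 1500 bp stands for about 6.49, 5.58 and 6.14 fragments. A gene is called detected where it reached 1 FPKM in all 3 libraries, which 18644 features did (55.6%), and 11287 features were listed at 0 in all 3. The share of a gene is its percent of the summed FPKM of its library.

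A root tip divides and elongates, and cells behind it differentiate into root hairs and non-hair epidermis, cortex, an endodermis with a lignified Casparian strip and suberin, and the vascular stele. Its RNA therefore mixes the machinery of growth, such as ribosomal proteins, tubulins and cell wall proteins, with genes for the uptake of water and ions. Roots of Arabidopsis and its relatives also hold ER bodies, rod-shaped compartments of the endoplasmic reticulum filled with the β-glucosidase PYK10, which acts in the defence system based on glucosinolates.

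Root cell lists were detected in full and guard cell, seed and flower lists not at all, while most photosynthesis genes were detected. All members of the lists for root hair (11 genes), non-hair epidermis (5), root cap (4), cortex (2), endodermis and Casparian strip (10), suberin (7), stele (5), xylem (9), phloem (6), stem cell niche (3) and dividing cells (6) were detected. None of the 4 guard cell genes, 6 seed genes and 5 flower and pollen genes was detected. Of the 12 photosynthesis genes, 10 were detected, holding 0.0639% ± 0.00598 of summed FPKM. The light-harvesting gene LHCB1.3 stood at 192, 170.5 and 231 FPKM, and RBCS1A, which encodes a small subunit of Rubisco, at 165, 148 and 167 FPKM. The carbonic anhydrase gene CA1, abundant in leaves, stood at 0.377, 0 and 0.199 FPKM. The labels' protocol names both roots and shoots as sources of RNA, and whether the photosynthesis transcripts came from roots or from shoot material was not tested.

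Replicate 1 stood apart in a small set of genes. Among the 12455 genes with a mean of at least 10 FPKM and a span of at least 300 bp, 100 were at least 1.5-fold below both other libraries in replicate 1, 29 in replicate 2 and 53 in replicate 3 (0.803%, 0.233% and 0.426%). At least 1.5-fold above both others were 25, 30 and 24 genes (0.201%, 0.241% and 0.193%). Early stress genes were among those low in replicate 1, and ribosomal protein genes were slightly higher there; both are described with their values below. Pearson correlations of log2(FPKM + 1) across the 19365 genes with a mean of at least 1 FPKM were 0.972 between replicates 1 and 2, 0.973 between 1 and 3 and 0.974 between 2 and 3; genes are not independent replicates.

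Few genes held much of the summed FPKM. The most abundant gene alone held 4.23% ± 0.473 of summed FPKM, the top 10 held 6.72% ± 0.503, the top 100 held 19.1% ± 0.652 and the top 1000 held 51.5% ± 0.746. In replicates 1, 2 and 3, 50% of summed FPKM lay in 878, 961 and 916 genes. At or above 1000 FPKM were 92, 82 and 87 genes, and 92 genes were among the top 100 of all 3 libraries. All of the 100 genes with the highest mean were protein-coding and none was encoded by an organelle. The curves of level against rank lay on each other except at the first ranks, where replicate 2 was lowest for the leading gene.

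**Figure D1:**
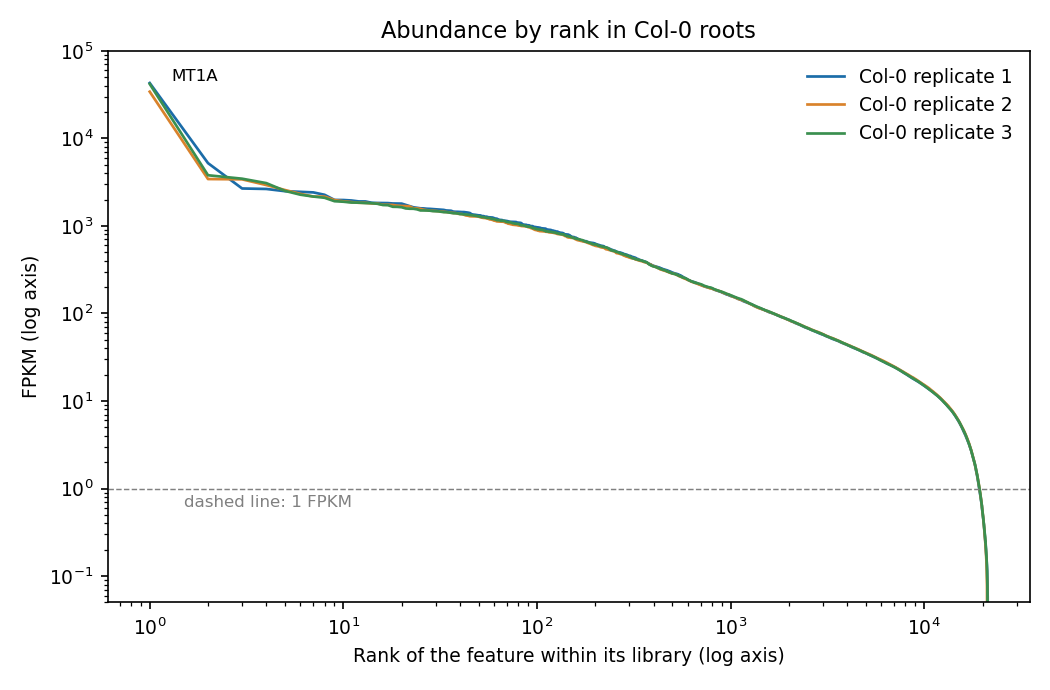
FPKM of each feature above 0 (y, log axis) against its rank within its own library (x, log axis), with 1 line for each of the 3 Col-0 libraries and a dashed line at 1 FPKM. The leading gene, MT1A, stands alone at the left, and the lines overlap from the top 100 on and cross 1 FPKM at 19231, 19295 and 19286 genes.

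The leading gene was MT1A (AT1G07600), a metallothionein, a small cysteine-rich protein that binds copper and zinc. It stood at 42810.4, 34076 and 41754 FPKM, a mean of 39547 ± 4768 FPKM. It was highest in replicates 1 and 3 and lowest in replicate 2, and in each library it was far above the gene of the next rank. Its level depends on its length more than most: the RefSeq model of the gene has only 138 bases, the files' locus ends 70 bp beyond it and is shared with AT1G07590, and the length behind the FPKM is not known here.

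The metallothionein family as a whole held 4.54% ± 0.482 of summed FPKM, of which MT1A made up 93.2%. MT2B, at 1273, 1115 and 1141 FPKM, and MT1C, at 1118, 1027 and 1258 FPKM, overlapped in their ranges. MT3 followed at 544, 530.2 and 496 FPKM. MT2A, which like MT2B is a type 2 metallothionein, was much lower and spread widely, at 26.4, 39.8 and 54.6 FPKM. MT1B was listed at 0 in 2 libraries and at 41.3 FPKM in replicate 2, and the seed metallothionein genes MT4A and MT4B were listed at 0 in all 3. MT1A and MT1C are alike in sequence, so how fragments were split between them is uncertain.

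PYK10 (AT3G09260, named BGLU23 in the files), the β-glucosidase of ER bodies, was the next most abundant gene of at least 300 bp. It stood at 2672, 3424 and 3457 FPKM, lowest in replicate 1 and nearly equal in the other 2. The gene of the PYK10-binding protein PBP1 (AT3G16420), a lectin, stood at 1225, 1338 and 1328 FPKM. The related glucosidase genes BGLU21 and BGLU22 had means of 431 ± 23.6 FPKM and 141 ± 16.7 FPKM. NAI2, needed to form ER bodies, stood at 269, 282 and 264 FPKM, and NAI1, the bHLH factor that controls them, at 35.8, 47.7 and 38.2 FPKM. The root myrosinase genes TGG4 and TGG5 had means of 60.8 ± 4.04 FPKM and 72.2 ± 6.96 FPKM. The 8 genes of this list held 0.589% ± 0.0588 of summed FPKM, and 5 of them were lowest in replicate 1, where 34.8% of all detected genes were lowest.

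RNA-binding and stress-related proteins came next. ATGRP9, a glycine-rich protein gene, stood at 2489, 2926 and 3078 FPKM, lowest in replicate 1. RBG7, a glycine-rich RNA-binding protein also known from the clock, stood at 2639, 2565 and 2507 FPKM, and the small dehydrin gene AT1G54410 at 2443, 2320.3 and 2269 FPKM. These latter 2 varied far less than PYK10 or ATGRP9, with a coefficient of variation (CV, the SD over the mean) of 2.58% and 3.8% against 13.9% and 10.8%.

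Metabolic genes of the top 30 included AAC1, an ADP/ATP carrier of mitochondria, at 1883 ± 43.0 FPKM. SAHH1, S-adenosylhomocysteine hydrolase of the methyl cycle, had a mean of 1764 ± 54.0 FPKM. GSTF9, a phi-class glutathione transferase, had 1774 ± 59.6 FPKM, and the glycolytic gene GAPC2, glyceraldehyde-3-phosphate dehydrogenase, had 1674 ± 185 FPKM. GAPC2 was highest in replicate 3, at 1553, 1583 and 1887 FPKM, with the other 2 libraries close together. The wall gene EXT3, an extensin that forms a network in the primary wall, stood at 1582, 1834 and 1498 FPKM. The peroxidase gene PER42 stood at 1900.4, 1969.8 and 1816 FPKM, the major latex protein gene MLP328 at 1522, 1682 and 1581 FPKM, and TCTP, the translationally controlled tumour protein, at 1836, 1688 and 1464 FPKM. Among these, TCTP was highest in replicate 1 and EXT3, PER42 and MLP328 in replicate 2; the ranges of PER42 and MLP328 each overlapped those of EXT3 and TCTP but not each other.

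Ribosomal proteins held the largest share of summed FPKM of the families examined. They made up 15 of the 30 most abundant genes of at least 300 bp and 57 of the top 100, although they were 1.15% of the detected genes. Of 230 genes for cytosolic ribosomal proteins, 215 were detected, 198 had a mean of at least 100 FPKM and 8 were listed at 0 in all 3 libraries. Together they held 16.9%, 15.7% and 15.6% of summed FPKM in replicates 1, 2 and 3, a mean of 16.1% ± 0.711. Replicate 1 was above the other 2: 184 of the 215 detected genes were highest there, while 34.3% of all detected genes were. The median deviation of the family from each gene's own mean of log2(FPKM + 1) was 0.07, -0.04 and -0.04.

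The summed levels of the single ribosomal proteins were close to each other. Added over the gene copies that share a name, the 80 named proteins had a median of 1846 FPKM, with the middle 50% between 1526 and 2047 FPKM. The 48 proteins of the large subunit, stalk proteins included, had a median of 1942 FPKM and the 32 of the small subunit 1576 FPKM. For 79 of the 80 the sum was highest in replicate 1, and the median CV of the sums was 4.44%. RPL41, a peptide of the large subunit so short that its genes have short transcripts, stood far above the rest at 7961 FPKM, with a CV of 17.1%.

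For most ribosomal proteins, RNA of more than 1 gene copy was detected. In 78 of the 80, at least 2 copies were detected, and the leading copy held a median of 54.9% of the sum. It held over 75% in 13 of the 78 and over 50% in 57. With a high share, RPS23B gave 99.4% ± 0.0527 of RPS23 and RPS9B gave 98.2% ± 0.366 of RPS9. With a low share, the leading copy of RPS18 held 36.3% ± 1.09 among 3 detected copies. The leading copy was the same gene in all 3 libraries for 73 of the 78. Copies of one protein are alike in sequence and it is not known here how shared reads were split, so the shares of single copies are less certain than the sums.

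Promoters of 3 of the most abundant of these genes are shown for 2 motifs known from ribosomal protein genes of Arabidopsis: TGGGCC, the core of the site II element, and AAACCCTA, the telo-box. Each line holds the 250 bases before the start of the gene in RefSeq's annotation of the TAIR10.1 assembly, 5′ to 3′ on the gene's strand, with matches to either motif on either strand in capitals. RPL37AC lies on the plus strand (chr3:22268438-22268687), RPL14B (chr4:13595253-13595502) and RPL29A (chr3:2118075-2118324) on the minus strand.
RPL37AC: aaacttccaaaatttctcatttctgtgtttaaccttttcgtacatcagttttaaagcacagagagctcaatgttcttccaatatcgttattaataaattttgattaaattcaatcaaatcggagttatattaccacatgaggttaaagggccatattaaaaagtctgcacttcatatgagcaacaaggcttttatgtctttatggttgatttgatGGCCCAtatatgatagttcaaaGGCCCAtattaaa
RPL14B: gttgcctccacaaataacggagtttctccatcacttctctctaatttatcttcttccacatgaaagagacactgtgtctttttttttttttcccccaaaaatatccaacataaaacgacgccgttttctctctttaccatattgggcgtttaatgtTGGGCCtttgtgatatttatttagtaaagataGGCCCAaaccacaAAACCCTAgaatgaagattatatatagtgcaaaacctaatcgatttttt
RPL29A: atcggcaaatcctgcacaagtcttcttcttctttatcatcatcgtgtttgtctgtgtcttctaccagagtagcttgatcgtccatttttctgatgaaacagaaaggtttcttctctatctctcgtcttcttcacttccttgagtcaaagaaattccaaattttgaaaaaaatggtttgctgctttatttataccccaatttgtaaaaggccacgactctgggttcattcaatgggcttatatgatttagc
The line of PYK10 (BGLU23, minus strand, chr3:2843782-2844031), which held neither motif, has in capitals its matches to TATAAA, the core of the TATA box. TATAAA was not marked in the lines of the ribosomal protein genes, where RPL29A also holds it on the other strand.
BGLU23: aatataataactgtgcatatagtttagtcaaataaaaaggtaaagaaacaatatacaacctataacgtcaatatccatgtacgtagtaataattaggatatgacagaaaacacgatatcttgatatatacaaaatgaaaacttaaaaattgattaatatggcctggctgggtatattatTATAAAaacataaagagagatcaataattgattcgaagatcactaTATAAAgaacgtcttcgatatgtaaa

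RPL37AC and RPL14B each held 2 matches to TGGGCC, RPL14B also 1 to AAACCCTA, and RPL29A none to either. In windows from 250 bases before to 50 after the start, counting both strands and gene models with a 5′ UTR only, TGGGCC was found in 65.3% of 222 ribosomal protein genes and in 16.8% of all 23203 protein-coding genes. AAACCCTA was found in 49.5% of the former and 5.36% of the latter, and both together in 34.7% and 1.68%. Matches of different motifs may overlap and were counted separately, and a match is a string of letters and not a shown binding site.

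Motif content went with abundance, and above 300 FPKM much of this was the ribosomal protein genes. TGGGCC stood in 6.04% of promoters of genes listed at 0, 12.6% at 1 to 3 FPKM, 19.0% at 10 to 30 FPKM, 22.4% at 100 to 300 FPKM, 42.0% at 300 to 1000 FPKM and 54.0% over 1000 FPKM. Without the ribosomal protein genes, it stood in 21.7% at 100 to 300 FPKM. The 2 bins above that then held it in 29.9% and 25.6% (39 promoters). AAACCCTA stayed between 4.35% and 7.20% up to 300 FPKM and reached 20.7% and 29.9% in the 2 top bins, or 5.75% and 10.3% without those genes. TATAAA was common everywhere, in 53.1% of all promoters, 59.4% of those of genes listed at 0, 50.8% at 10 to 30 FPKM and 64.4% over 1000 FPKM. Among promoters of ribosomal protein genes it stood in 63.5%.

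Genes over 100 FPKM were also shorter, and richer in G and C at the last codon position, than those at 10 to 30 FPKM. The median RefSeq transcript had 1851 bases at 10 to 30 FPKM and 1093 bases over 1000 FPKM, with a median of 5 and 4 exons. Without the ribosomal protein genes the latter median was 1358 bases. Median GC at last codon positions was 42.3% for genes listed at 0, 42.0% at 1 to 3 FPKM, 40.9% at 10 to 30 FPKM, 42.5% at 30 to 100, 45.8% at 100 to 300 and 52.2% over 1000 FPKM. Without the ribosomal protein genes the last value was 51.8%. Genes listed at 0 had short models too, with a median of 873 bases and 2 exons, and 36.3% of them had a single exon. Length enters the FPKM itself, so length and level are not independent measures.

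Ubiquitin and translation factor genes were also high. The 9 ubiquitin genes, some of which encode fusions with ribosomal proteins and are counted in that family too, held 0.88% ± 0.0111. The fusion genes UBQ5, at 1819.8, 1668 and 1648 FPKM, UBQ1, with a mean of 1514 ± 43.6 FPKM, and UBQ6, at 1454, 1403 and 1469 FPKM, stood above the polyubiquitin gene UBQ10, at 1113, 1118 and 1161 FPKM, while UBQ2, also a fusion gene, stood below it with a mean of 440.1 ± 33.6 FPKM. Of the 4 genes for elongation factor EF1A, which brings aminoacyl-tRNA to the ribosome, EF1A-4 held 76.7%. EF1A-4 stood at 2264, 2158 and 2093 FPKM, and EF1A-2, EF1A-1 and EF1A-3 followed with means of 309 ± 11.5 FPKM, 198 ± 26.9 FPKM and 152 ± 15.1 FPKM. All 4 were highest in replicate 1 and lowest in replicate 3. Their coding sequences are nearly the same, so the split among them is uncertain.

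**Figure D2:**
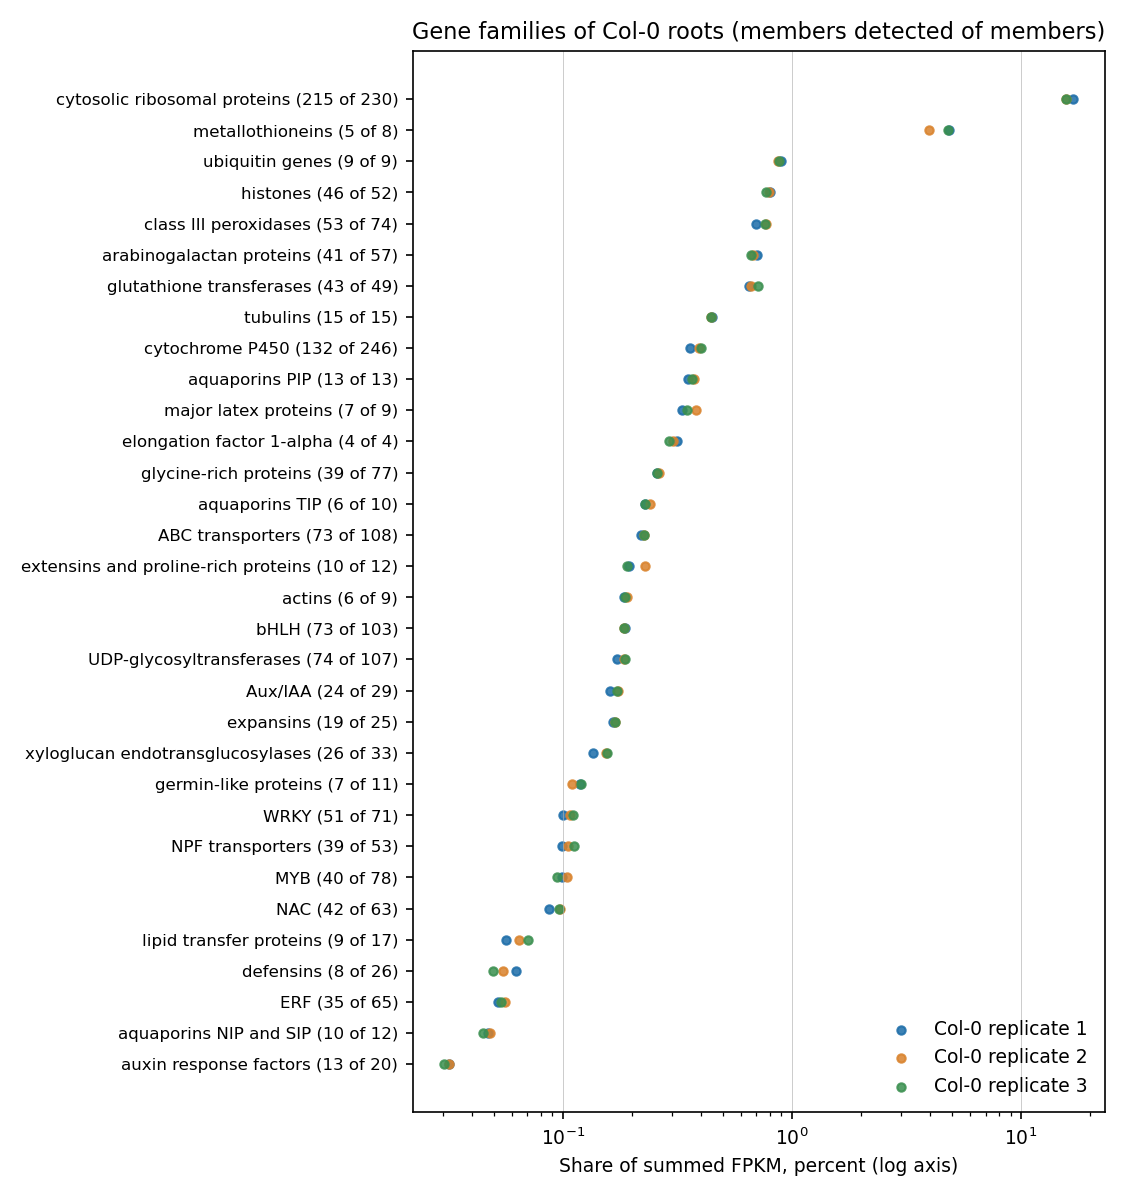
Share of summed FPKM (x, log axis, percent) of each gene family or list (rows), with 1 point for each Col-0 library and the number of members detected of all members in brackets. Ribosomal proteins at 16.1% ± 0.711 and metallothioneins at 4.54% ± 0.482 stand to the right of all other families, each of which held under 1%. Families hold only genes matched by name, so the row of glycine-rich proteins leaves out ATGRP9 (2831 FPKM) and RBG7 (2570 FPKM). The row of defensins likewise leaves out PDF2.3 (1065 FPKM), and both shares are too low. The rows of ERF and MYB genes also leave out members.

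The cytoskeleton was steady across libraries. All 15 tubulin genes were detected and together held 0.445% ± 0.00222. The α-tubulin genes TUA6, TUA4 and TUA2 led with 625 ± 13.8 FPKM, 587 ± 15.3 FPKM and 509.7 ± 10.7 FPKM, and TUB4 was the leading β-tubulin with 451 ± 12.5 FPKM. TUA1, which is known as a pollen gene, was lowest with 10.8 ± 1.27 FPKM. The near-identical pairs TUA2 and TUA4, TUA3 and TUA5, and TUB2 and TUB3 had summed values that are firmer than the single ones. Of 9 actin genes 6 were detected: the vegetative genes ACT2 (625 ± 12.8 FPKM), ACT7 (513 ± 9.96 FPKM) and ACT8 (479 ± 4.36 FPKM) had ranges that did not overlap. ACT11, ACT3 and ACT1, known from reproductive organs, lay between 27.9 and 63.1 FPKM on average, and ACT4, ACT9 and ACT12 were below 1 FPKM or at 0.

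Genes for water channels reached means of up to 748 FPKM. Aquaporins of the plasma membrane (PIP), the vacuole (TIP) and the nodulin-26-like and small basic classes (NIP and SIP) were detected in 13 of 13, 6 of 10 and 10 of 12 genes. They held 0.364% ± 0.00973, 0.232% ± 0.00737 and 0.0468% ± 0.00175 of summed FPKM. The vacuolar pair TIP1;2, at 732, 781 and 731 FPKM, and TIP1;1, at 702, 743 and 696 FPKM, led all aquaporins with overlapping ranges. The next 4 were PIPs: PIP1;2 at 629, 616 and 648 FPKM, PIP2;1 at 583, 658 and 629.6 FPKM, PIP2;7 at 586, 588 and 579.9 FPKM and PIP1;3 at 540.3, 562 and 590.4 FPKM. Neighbours among these 4 overlapped in their ranges, while PIP1;2 lay above PIP2;7 and PIP1;3 in every library.

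A gap separated the 4 leading PIPs from the rest. PIP2;2, at 312, 313 and 296 FPKM, and PIP1;1, at 302, 303 and 284 FPKM, overlapped each other and lay below all of them, as did PIP1;4, at 119 ± 5.62 FPKM, and PIP1;5, at 116 ± 7.4 FPKM, further down. PIP2;4 (75.8 ± 6.59 FPKM), PIP2;3 (38.9, 43.6 and 33.6 FPKM), PIP2;8 (25.1 ± 0.763 FPKM), PIP2;5 (15.3 ± 0.398 FPKM) and PIP2;6 (4.27 ± 0.181 FPKM) followed with no overlap between neighbours. PIP2;2 and PIP2;3 are near-identical neighbours, so their split is uncertain.

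The other vacuolar genes were TIP2;1 at 313 ± 6.38 FPKM, TIP2;2 at 234 ± 3.49 FPKM, TIP4;1 at 112 ± 9.32 FPKM and TIP2;3 at 49.3 ± 0.409 FPKM, with no overlap between neighbours. TIP3;1 and TIP3;2, the seed TIPs, and TIP5;1, known from pollen, were listed at 0 in all 3 libraries, and TIP1;3 did not exceed 0.421 FPKM. NIP1;1 led the third class at 179.8, 172 and 148 FPKM, followed by SIP1;1 at 114, 111 and 112 FPKM, SIP2;1 at 64.9, 68.2 and 77.3 FPKM and the boric acid channel NIP5;1 at 57.1, 56.6 and 48.8 FPKM. NIP1;2 stood at 12.7, 14.0 and 11.7 FPKM and NIP3;1 at 8.39, 10.6 and 8.03 FPKM. NIP6;1, SIP1;2, NIP4;2 and NIP2;1 lay between 1.49 and 5.19 FPKM on average, NIP7;1 below 1 FPKM, and NIP4;1 at 0.

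**Figure D3:**
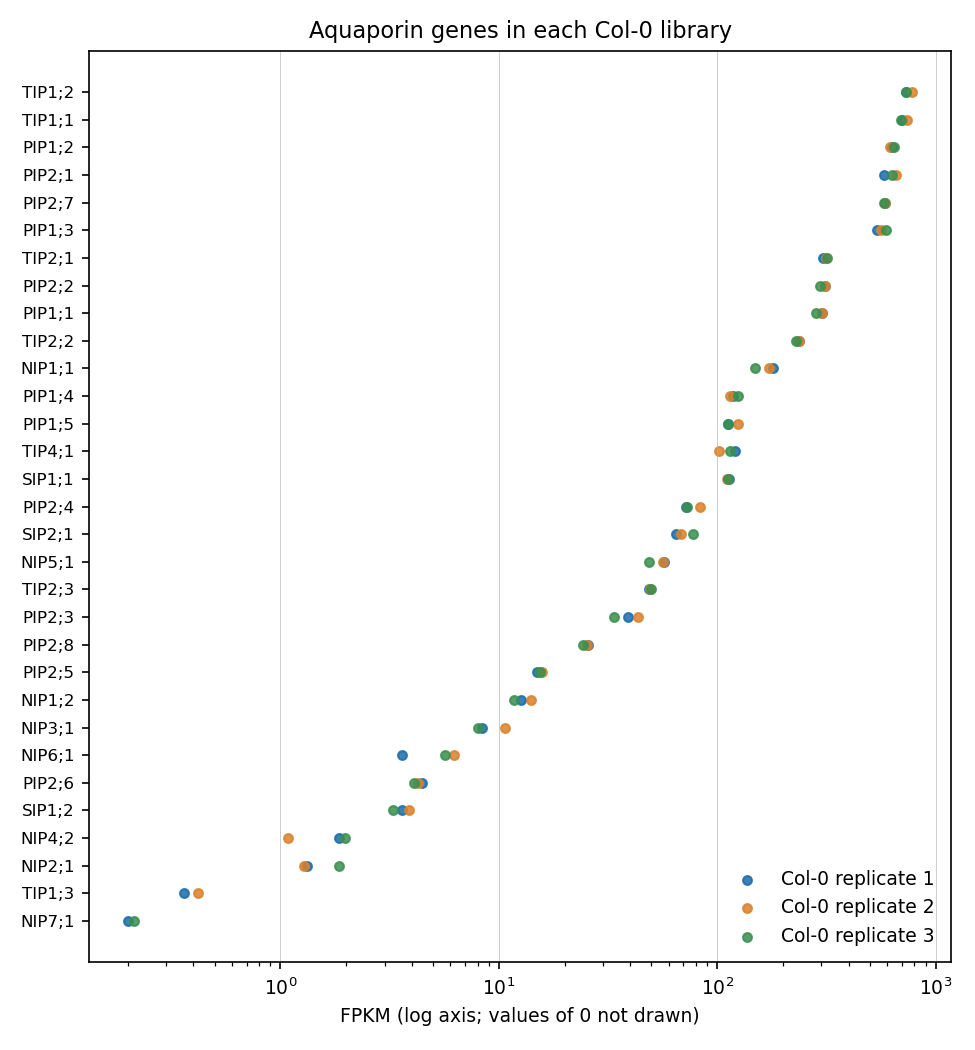
FPKM (x, log axis) of each aquaporin gene with a value above 0 (rows, ordered by mean), with 1 point for each Col-0 library. The points of TIP1;2 and TIP1;1 and of the 4 leading PIPs lie together at the top, and the points of a gene spread more at the low end, where NIP4;2 ranged from 1.08 to 1.97 FPKM.

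Among enzyme families, class III peroxidases, which act on the cell wall, held 0.742% ± 0.0405 with 53 of 74 genes detected. PER42 alone held 27.3% of that, and PER32 and PER23 followed at 668, 737 and 731 FPKM and 367, 447 and 526 FPKM. Of the 53 detected peroxidases, 31 were lowest in replicate 1, where 34.8% of all detected genes were lowest. Glutathione transferases held 0.674% ± 0.0331 with 43 of 49 detected, led by GSTF9, GSTU19 at 706, 765 and 939 FPKM and GSTF10 at 633, 646 and 624 FPKM. GSTU19 was highest in replicate 3, and GSTF10 varied little.

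Of 246 cytochrome P450 genes, 132 were detected, with a share of 0.384% ± 0.0217. CYP81F4, which modifies indole glucosinolates, led at 573, 639.8 and 695 FPKM, and CYP83B1 and CYP79B2, of the same pathway, had means of 211 ± 17.1 FPKM and 140.3 ± 11.5 FPKM. CYP73A5, cinnamate 4-hydroxylase of the phenylpropanoid pathway, stood at 385, 423 and 426 FPKM. The glycosyltransferase genes UGT72E2 and UGT72E1, which act on monolignols, led the 74 of 107 detected members of their family at 157 ± 3.58 FPKM and 116 ± 9.11 FPKM.

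Wall proteins were led by EXT3, which held 85.7% of the share of extensins and proline-rich proteins (0.205% ± 0.0206). Arabinogalactan proteins held 0.681% ± 0.0221 with 41 of 57 detected, led by AGP31 at 939.8, 869 and 842 FPKM, AGP24 at 536, 476 and 543 FPKM and AGP9 at 499, 455 and 426 FPKM. Expansins, which loosen walls, held 0.168% ± 0.00228, led by EXPB3 (392 ± 12.0 FPKM), EXPA4 (244 ± 13.8 FPKM) and EXPA15 (217 ± 11.7 FPKM). Xyloglucan endotransglucosylases held 0.149% ± 0.0116, led by XTH31 (259 ± 27.7 FPKM), XTH9 (167 ± 32.3 FPKM) and XTH7 (130.2 ± 13.4 FPKM), and 16 of their 26 detected genes were lowest in replicate 1, against 34.8% of all detected genes.

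Transcription factor families held small shares, and their detected members had median levels near or below that of all detected genes. Of all 26676 protein-coding genes, 18225 were detected. The shares were 0.186% ± 0.000917 for 73 of 103 bHLH genes, 0.106% ± 0.00556 for 51 of 71 WRKY genes, 0.0994% ± 0.00517 for 40 of 78 MYB genes, 0.0936% ± 0.00585 for 42 of 63 NAC genes and 0.0538% ± 0.00197 for 35 of 65 ERF genes. The families hold only genes matched by name patterns, which missed some members. Of ERF104, ERF5, ERF6 and ERF1A, at most 1 was in the ERF family. At least 1 of AtMYB70 and AtMYB9 was missing from the MYB family. Counts and shares of these families are therefore too low, and their medians are those of the matched genes. Median levels of detected members lay between 8.32 FPKM for ERF and 17.0 FPKM for bHLH, with 16.7 FPKM for all detected genes. The leading members among the matched genes were BHLH115, an iron-deficiency regulator, at 153 ± 7.68 FPKM, WRKY65 at 106 ± 3.34 FPKM, MYB59 at 171 ± 1.6 FPKM, ANAC083 at 106 ± 6.31 FPKM and ERF055 at 68.8 ± 15.2 FPKM. The auxin repressor genes were higher: 24 of 29 Aux/IAA genes were detected, led by IAA9 at 347, 354 and 389 FPKM, IAA28 at 208, 225 and 187 FPKM and IAA16 at 154, 174 and 175 FPKM. Of 20 auxin response factor genes 13 were detected, led by ARF2 at 58.9 ± 3.67 FPKM.

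Cell type genes ranged over 2 orders of magnitude in level. In the endodermis list, the Casparian strip membrane protein gene CASP1 stood at 122, 131 and 143 FPKM, CASP2 at 67.2, 59.2 and 55.3 FPKM, and the dirigent-like gene ESB1 at 60.7, 65.2 and 66.6 FPKM. SCR, the factor that specifies the endodermis, had a mean of 21.6 ± 1.43 FPKM, and MYB36, which turns on the CASP genes, 16.5 ± 2.18 FPKM. Fewer cells of a type and less RNA per cell cannot be told apart in these libraries. Suberin genes followed with ASFT, the feruloyl transferase, at 70.0, 89.0 and 80.3 FPKM and CYP86A1, a fatty acid ω-hydroxylase, at 59.1, 83.1 and 91.0 FPKM. Of the 7 suberin genes, 6 were lowest in replicate 1, against 34.8% of all detected genes.

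In the epidermis, the hair wall genes PRP3, PER7 and EXPA7 had means of 88.9 ± 7.25 FPKM, 87.5 ± 8.11 FPKM and 48.7 ± 8.15 FPKM. RHD6, the factor that starts hair formation, stood at 21.8, 23.5 and 21.2 FPKM. The non-hair factors WER, TTG1 and GL2 had means of 32.9 ± 3.88 FPKM, 25.5 ± 2.46 FPKM and 12.8 ± 1.02 FPKM. In the stele, NPF7.3, which loads nitrate into the xylem, stood at 286, 291 and 341 FPKM and the phosphate exporter PHO1 at 139, 151 and 127 FPKM. Xylem protease genes XCP1 and XCP2 had means of 105 ± 9.61 FPKM and 87.1 ± 4.97 FPKM, and the phloem genes PP2-A1, SEOR1 and SUC2 had 90.3 ± 5.85 FPKM, 42.3 ± 4.36 FPKM and 24.8 ± 1.9 FPKM.

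The stem cell niche and the root cap had the lowest median levels of the root marker lists, 4.77 and 10.6 FPKM. The root cap factors SMB and BRN1 stood at 13.7, 10.6 and 10.8 FPKM and 12.9, 9.73 and 12.4 FPKM, highest in replicate 1. The stem cell genes PLT1, PLT2 and WOX5 stood at 9.39, 10.5 and 8.37 FPKM, at 5.95, 4.84 and 3.53 FPKM and at 2.95, 1.28 and 1.56 FPKM. The level of WOX5 stands for an estimated 13.4, 5.02 and 6.70 fragments, so its differences are of the size of the counting error. Dividing cells, with a median of 38.3 FPKM, were marked by KNOLLE, the syntaxin of the cell plate, at 79.4, 72.7 and 84.7 FPKM, PCNA1 at 61.1, 57.8 and 60.9 FPKM and CYCB1;1 at 15.5, 14.2 and 16.2 FPKM, each close in the 3 libraries.

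Nitrogen uptake genes were high, and replicate 3 was above the others. GLN1;2, a cytosolic glutamine synthetase, stood at 679, 689.7 and 954 FPKM, the high-affinity nitrate transporter NRT2.1 at 649, 663 and 882 FPKM and its partner NRT3.1 at 477, 506 and 678 FPKM. Replicate 3 was clear of the other 2 in each, while GLN1;1, at 641, 620.3 and 639 FPKM, was level. The nitrate reductase genes NIA1 and NIA2 stood at 312, 342 and 396 FPKM and 157, 172 and 216 FPKM, and nitrite reductase NIR1 at 339, 327 and 405 FPKM. The nitrate transceptor NRT1.1 stood at 111, 117 and 152 FPKM. The ammonium transporters AMT1;1, AMT1;3 and AMT1;2 had means of 170.5 ± 11.8 FPKM, 72.1 ± 12.2 FPKM and 45.3 ± 4.08 FPKM. Of the 13 genes, all detected, 12 were highest in replicate 3, where 31.3% of all detected genes were highest, and the median deviations were -0.16, -0.10 and 0.21 on the log2 scale.

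Glycolysis and hypoxia genes had the same library on top. Of 18 genes for glycolysis and fermentation, 15 were highest in replicate 3, against 31.3% of all detected genes, with median deviations of -0.07, -0.03 and 0.08. ADH1, alcohol dehydrogenase, stood at 14.5, 23.3 and 36.9 FPKM, the haemoglobin gene HB1 at 40.6, 53.7 and 65.9 FPKM, the oxygen-sensing cysteine oxidase genes PCO1 and PCO2 at 10.6, 12.8 and 19.7 FPKM and 1.36, 4.07 and 5.35 FPKM, and LBD41 at 15.7, 22.2 and 29.3 FPKM. HRE1 went another way, at 27.7, 23.0 and 25.8 FPKM. Of the 8 hypoxia genes, 7 were lowest in replicate 1 and 7 highest in replicate 3, against 34.8% and 31.3% of all detected genes, with median deviations of -0.36, 0.03 and 0.37; ADH1 and 2 others are counted in both lists.

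Early stress genes were lower in replicate 1 than in the other 2 libraries. The 9 detected genes of the list of touch, wounding and early stress had median deviations of -0.61, 0.27 and 0.27, and 8 of the 9 were lowest in replicate 1, against 34.8% of all detected genes. CAF1A, a deadenylase gene, stood at 1.45, 20.4 and 14.3 FPKM, and the xyloglucan gene TCH4, named for its response to touch, at 5.36, 20.0 and 11.3 FPKM. The calmodulin-like genes TCH2 and TCH3 stood at 46.9, 73.1 and 64.7 FPKM and 4.37, 11.3 and 11.4 FPKM. Every one of these 4 was lowest in replicate 1. The transcription factor genes followed: WRKY33 at 19.2, 33.3 and 41.0 FPKM, ZAT12 at 16.4, 29.4 and 34.0 FPKM, ERF6 at 6.47, 17.8 and 14.7 FPKM and, below the detection level in replicate 1, WRKY40 at 0.203, 2.83 and 3.01 FPKM. The jasmonate repressor gene JAZ1 stood at 31.0, 46.8 and 49.3 FPKM. EXO70B2, at 12.3, 13.2 and 11.9 FPKM, was the member that did not share the pattern.

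Of the 8 list members with a mean of at least 10 FPKM, 6 were among the 100 genes at least 1.5-fold below both others in replicate 1. These 100 were 0.803% of the 12455 genes compared. Others of the 100, chosen after their values were seen, were ZAT10, a zinc finger gene, at 7.73, 35.9 and 36.2 FPKM, ERF5, an ethylene response factor gene, at 12.7, 25.3 and 32.8 FPKM, HSPRO2 at 15.2, 57.2 and 35.3 FPKM and the mitochondrial carrier gene PUMP4 at 5.5, 22.5 and 31.0 FPKM. The BTB and TAZ domain genes BT2 and BT1, known to respond to nitrate and sugar, stood at 56.5, 120.0 and 92.7 FPKM and 48.6, 96.6 and 99.2 FPKM. The glutaredoxin gene GRXS13 stood at 38.0, 65.5 and 59.5 FPKM. In each of these genes the other 2 libraries lay closer to each other, on a log scale, than to replicate 1. The labels name 2 library kits, each with its own sequencer, without saying which kit each library had. The sources do not say whether handling, harvest time or library preparation differed for replicate 1, and their part was not tested.

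**Figure D4:**
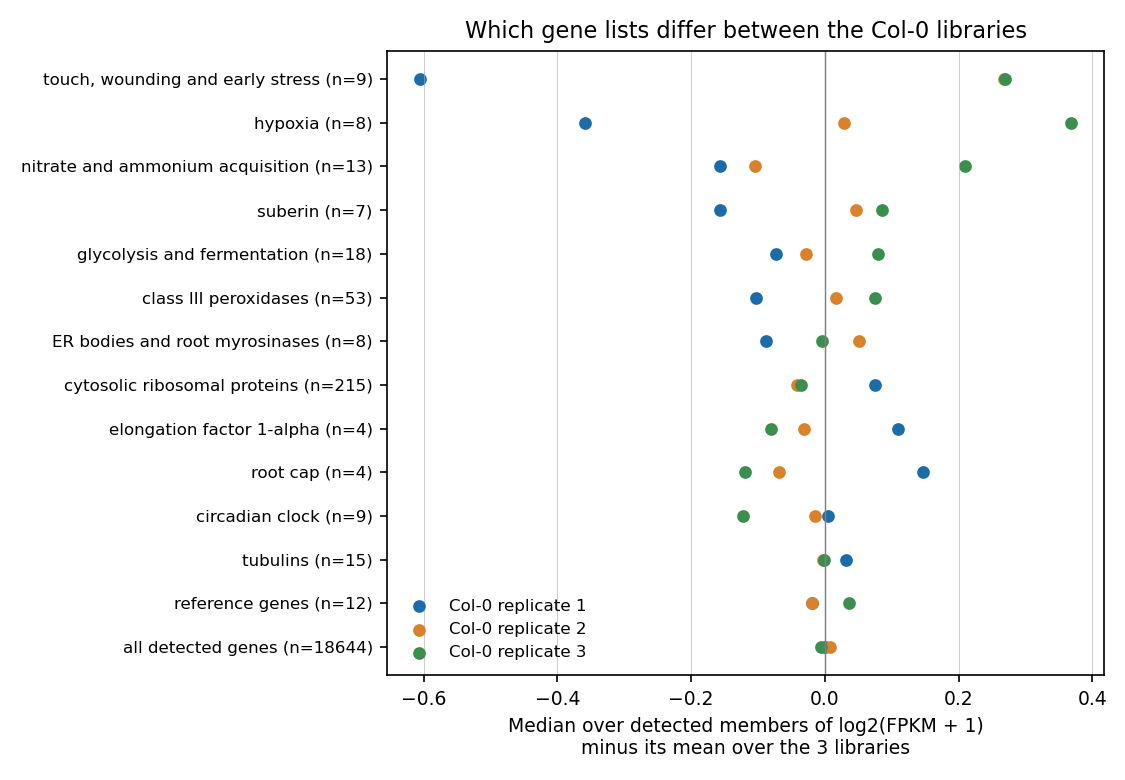
Median over detected members of log2(FPKM + 1) minus the gene's mean over the 3 libraries (x, log2 scale) for selected gene lists (rows, with the number of detected genes) in each Col-0 library. The early stress list lies at -0.61 in replicate 1 and 0.27 in the other 2, hypoxia runs from -0.36 to 0.37, and all detected genes together lie within 0.01 of 0.

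Heat shock and clock genes differed less between libraries than the early stress genes. The heat shock gene HSP70-4 stood at 34.4, 40.1 and 37.5 FPKM and HSP101 at 8.1, 6.08 and 8.28 FPKM. The clock genes CCA1 and LHY, which peak at dawn, had means of 17.5 ± 2.07 FPKM and 12.5 ± 0.81 FPKM, and the evening genes TOC1, ELF4 and GI had 35.4 ± 3.31 FPKM, 141 ± 14.0 FPKM and 16.7 ± 2.63 FPKM. The median deviations of the 9 clock genes were 0.00, -0.01 and -0.12.

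Genes in use as references for RNA measurement varied less than most but not equally. PP2AA3, a phosphatase subunit, stood at 46.0, 47.9 and 50.5 FPKM, YLS8 at 257, 245 and 260.3 FPKM, UBC9 at 251, 262 and 255 FPKM and SAND at 29.8, 30.8 and 33.5 FPKM. ACT8 and ACT2 had CVs of 0.909% and 2.05%, UBC9 of 2.27%, UBQ10 of 2.32%, YLS8 of 3.25%, PP2AA3 of 4.63%, SAND of 6.01% and TIP41L of 8.39%. UBC21, with 11.8%, varied most of the 12, and GAPC2 came next. The median CV of the 12 was 3.61%, and that of all detected genes 9.30%, with the reference genes at higher levels on average.

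Spread between libraries fell with level and then levelled off. The median CV was 28.0% for genes of 1 to 3 FPKM, 14.7% at 3 to 10, 8.86% at 10 to 30, 6.44% at 30 to 100, 5.02% at 100 to 300, 4.72% at 300 to 1000 and 4.87% over 1000 FPKM. Counting error alone, at the estimated depth, would give 23.5% in the lowest bin and 7.34% at 10 to 30 FPKM, but 1.06% in the highest. The observed spread was thus 1.19 times the counting error at the low end and 4.59 times at the high end. In the bins up to 30 FPKM this ratio lay between 1.16 and 1.21, and it was 1.38 at 30 to 100 FPKM. A difference of 2-fold between libraries was seen in 36.5% of genes at 1 to 3 FPKM, 8.61% at 3 to 10 FPKM and 1.06% at 10 to 30 FPKM.

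**Figure D5:**
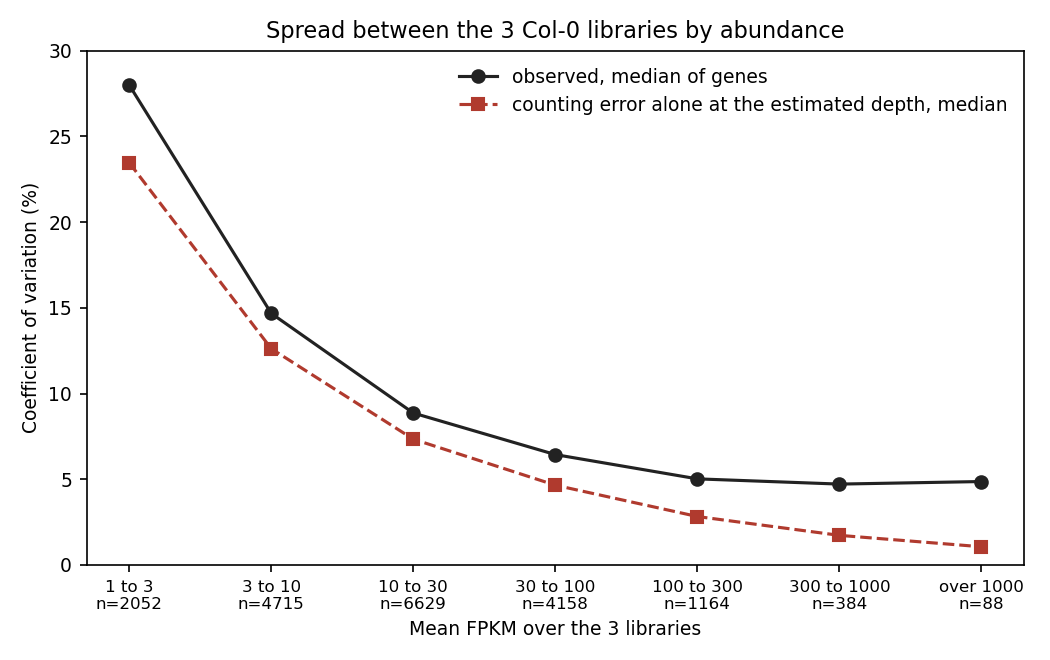
Median CV of genes over the 3 Col-0 libraries (y, percent; circles) in bins of mean FPKM (x, with the number of genes), and the median CV that counting error alone would give at the estimated depth (squares). The circles end at 4.87% and the squares at 1.06% in the bin over 1000 FPKM.

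The extremes of spread were of 2 kinds. Of the 10 genes with the largest CV among those with a mean of at least 10 FPKM and a span of at least 300 bp, 5 were listed at 0 in at least 1 library. AT1G07885 stood at 38.5, 0 and 0 FPKM, AT3G13240 at 0, 45.5 and 0 FPKM, MT1B at 0, 41.3 and 0 FPKM, AT2G35747 at 62.8, 59.5 and 0 FPKM and AT5G65609 at 0, 21.7 and 9.83 FPKM. An exact 0 beside such values can be a failed estimate, and such genes are only said to be listed at 0. AT5G45430, at 38.3, 0.0567 and 1.8 FPKM, shares its locus with the upstream reading frame CPuORF24, which stood at 29.1, 63.2 and 60.4 FPKM, so that the one was high where the other was low. The other 4, CAF1A, AT1G03660 at 1.63, 15.2 and 19.0 FPKM, the desaturase gene S-ACP-DES6 at 3.2, 19.5 and 16.5 FPKM and PEP3, of a danger signal peptide, at 7.11, 6.6 and 20.3 FPKM, had values above 0 in all libraries. Of these, 3 were lowest in replicate 1 and PEP3 was highest in replicate 3.

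The 10 smallest CVs lay below what counting error gives. The tubulin gene TUB7 stood at 226, 226 and 226 FPKM, the chaperonin gene CCT2 at 187, 187 and 188 FPKM, and SQE1, squalene epoxidase, at 32.6, 32.6 and 32.6 FPKM. Ornithine aminotransferase, DELTA-OAT, had the smallest, at 20.8, 20.8 and 20.8 FPKM. With 12455 genes ranked on 3 values each, some agree this closely by counting alone, and these genes are not thereby shown to be the steadiest. The remaining 6 were FAP1, TPS30, SIGE, AT2G25270, PIP5K8 and ATCFM2, at means of up to 20.4 FPKM.

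Protein-coding genes held 98.8% ± 0.0985 of summed FPKM. Few short features were detected. Of 1842 features with a span under 300 bp, 43 were detected, against 18644 of all 33555 features (55.6%). The short features were not split by type of RNA. The highest was the protein-coding gene RPL41E (AT2G40205), at 5205, 3398 and 3784 FPKM, then the small nucleolar RNA AT1G74456, at 535, 218 and 1319 FPKM, and another protein-coding gene named RPL41E (AT3G08520), at 436, 535 and 230.1 FPKM. Their spread, with CVs of 23.0%, 82.1% and 38.9%, was far above that of longer genes of the same level. All 623 tRNA genes were listed at 0. The 18S ribosomal RNA feature AT3G41768 stood at 183, 95.0 and 65.2 FPKM, highest in replicate 1, and 3 other ribosomal RNA features were listed at 0.

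Organelle genes were almost absent from the values. The 133 plastid features held 0.00165% ± 0.000576 of summed FPKM, none was detected and 110 were listed at 0. The 146 mitochondrial features held 6.65e-04% ± 3.19e-04, and only RRN18, at 6.64, 3.92 and 2.09 FPKM, and RRN26, at 2.13, 2.18 and 1.17 FPKM, both ribosomal RNAs, were detected. Genes that every root cell uses, such as those of the mitochondrial respiratory chain, are thus listed at 0, and these rows are not read as absence of the RNA. Of the features not OK in a library, TPL, a transcriptional corepressor gene, stood at 70.5, 67.2 and 74.3 FPKM and AT1G15740, of the same locus, at 39.0, 43.8 and 38.3 FPKM; both had a failed status in replicate 1.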

How the data were processed

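RNA-seq libraries of total RNA from Col-0 roots, 3 in all, were analysed, with groups and replicate numbers taken from the sample titles. The values are FPKM per feature as deposited by the authors, 1 file per library, with a status in each row per the file headers. The build was TAIR10, per the submitters' processing notes; the aligner, quantification program, use of strand and splitting of shared reads were not given in the sources used here. Protocols in the labels name roots and also shoots as the source of RNA, although each library is labelled as root. They name a TruSeq kit (MiniSeq) and an NEBNext Ultra II kit (NextSeq550), without saying which of them each library had.

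Files hold no counts. Depth was estimated from the FPKM worth of 1 fragment in genes with 1 transcript of 1500 to 4000 bp, and the estimate and the CV were tested on simulated data. The counting error set beside the CVs is that of whole fragments at this depth. Transcript length, exons and promoters came from RefSeq's annotation of TAIR10.1, matched by identifier for 32799 features; of 28629 genes alone at their locus, 100% lay on the same chromosome and 99.3% started within 1 kb, so coordinates are given on TAIR10.1 only. A gene listed under a locus shared with another (16.6% of those detected) is less certain, as are overlapping genes and near-identical copies.

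The libraries, the 31 gene lists (249 genes) and the 24 families were chosen with earlier results of these data known, and family name patterns were refined after the names in the files were seen. Genes are named by rule: the 30 highest means with a span of at least 300 bp, the 3 highest below 300 bp, the 3 highest of each list or family (all members of aquaporins, metallothioneins, reference genes and lists of up to 6), the 10 largest and 10 smallest CVs at a mean of at least 10 FPKM, and features not OK. Some genes that the rule names are not reported here. Several lists are described beyond their 3 highest members, and those further genes were chosen after their values were seen. Deviations use a pseudocount of 1. Python 3.11.15 with numpy 2.4.6, pandas 2.3.3, scipy 1.17.1 and matplotlib 3.10.9 were used. Alternatives were other detection levels and pseudocounts, other scalings (equal sums, median of ratios), no or stricter filters, subsets of features and leaving out each replicate.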

Additional observations from a re-analysis of the deposited data

How the results depend on the processing

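No paired analysis was possible because only 1 group is described. The number of detected genes lay between 14958 (minimum of 5 FPKM) and 19941 (1 FPKM in at least 1 library), and between 18826 and 18856 without 1 replicate. The top 100 held 17.5% of summed FPKM when features at a shared locus, MT1A among them, were left out, and the first gene then held 0.531% and the top 10 3.08%. Protein-coding genes held 99.1% among features of at least 300 bp. The median CV of 9.58% became 11.1% without a filter, 8.22% at a mean of at least 5 FPKM and 8.81% as the SD of natural-log values of FPKM + 1, and lay between 7.301% and 8.07% without 1 replicate, where 2 values in place of 3 lower it by construction. The mean correlation of 0.973 became 0.947 and 0.966 with pseudocounts of 0.1 and 0.5 and 0.990 with no filter, which adds genes at 0. No deviation of a list changed sign where it was at least 0.1: the early stress list stayed at -0.60 in replicate 1 with median-of-ratios scaling and at -0.63 with a pseudocount of 0.1. Of 1878 other values under an alternative, 1872 moved by less than the spread between replicates or, for deviations, between list members. For levels and shares this was fixed in advance where 1 replicate was left out (313 values for each replicate). The mean of 2 of 3 values always lies within 1 SD of the mean of all 3. The scaling factors lay between 0.990 and 1.01, so rescaling could move a level only slightly. Such values therefore do not measure robustness. Estimated depth was 3870000 fragments on average from transcripts of 1000 to 3000 bp, beside 4050000. Levels below about 3 FPKM rest on few fragments, and 3 libraries of 1 group leave biological and technical spread unseparated.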
